A study of Mus musculus with 6 samples.

Results

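Interleukins and interleukin receptors were followed in 3 organs, brain, liver and intestine, taken 3 h after total-body irradiation with 8.5 Gy or from untreated mice. Members were all probes whose gene symbol in the array's annotation begins with Il and a digit, which gave 93 probes reading 80 genes, of 29922 probes and 16675 symbols in all. By role, 36 of the genes encode ligands, 4 encode antagonists or soluble binding proteins, and 39 encode receptor chains. The remaining gene is Il4i1, which encodes an amino acid oxidase. The name rule also took in Il8ra and Il8rb, now called Cxcr1 and Cxcr2, which are chemokine receptors, and Il28ra, now Ifnlr1, which encodes a chain of the interferon lambda receptor. All mice were male FVB animals of 6 to 8 weeks, and all carried a luciferase transgene driven by NF-κB-responsive elements, so untreated and irradiated groups share the transgene. There were 6 groups with 1 column of values each: untreated brain, liver and intestine, and the same 3 organs after a single whole-body X-ray dose. Each value is the normalized Cy5 intensity of a spot on a single-colour oligonucleotide array, on a linear scale. Replicates from 6 mice are named in the methods, but the values used here are 1 column a group, and the sources do not say if a column is 1 array or combines the mice. The files therefore give no spread between mice, and no p-value was computed. Tissue was profiled whole, and its cell types were not separated.

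Interleukins are secreted signals by which leukocytes, epithelia and stroma control inflammation, lymphocyte growth and the repair of barriers. Those of the IL-1 and IL-17 families act through receptors that activate NF-κB, while most of the others act through receptors that signal by Jak kinases and Stat transcription factors. Many receptors are built from a private chain that binds the ligand and a chain shared with other ligands, such as the common gamma chain encoded by Il2rg and the gp130 chain encoded by Il6st. Many interleukin mRNAs are scarce in resting tissue and short-lived, and in the liver IL-1 and IL-6 are known to induce the acute phase proteins.

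Most member probes lay below the median of their column, except in irradiated intestine. In untreated tissue, 22 of 81 member probes with a value in brain reached the median intensity of their column, which was 103, as did 34 of 91 in liver (median 54) and 39 of 93 in intestine (median 64.5). After irradiation these numbers were 25, 37 and 49. The lowest intensity was 55 in both brain columns, 25.5 and 26 in liver and 36 in both intestine columns, and many member probes stood just above them. A fold change is therefore given only where both intensities of an organ reached the median of their column, and intensities otherwise. Calls, medians and the log2 ratios in the plots use all probes, and the log2 ratios of Il1f8 in intestine and Il22 in brain are given although 1 of their intensities was below the median. Brain had 19 member probes of this kind, liver 31 and intestine 38, and 46 did not qualify in any organ. No value was given in brain for 12 member probes, among them those of Il6, Il10 and Il17a, nor in liver for Il1f9 and Il9r.

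Few members differed by 1.8-fold, the threshold used in the study, between untreated and irradiated tissue. In brain, 1 of 81 member probes was higher and 1 was lower, while 0.496% of all probes were higher and 1.1% lower. In liver, 3 of 91 were higher and none was lower, beside 1.57% and 2.55% of all probes. In intestine, 2 of 93 were higher and none was lower, beside 1.69% and 2.71% of all probes. Among members with both intensities at or above the median, 1 of 19 was higher in brain, liver had 2 of 31 and intestine 1 of 38, and none was lower. Of all probes that bright, 0.678%, 2.89% and 3.21% were higher, and 1.96%, 4.66% and 5.22% were lower, in the same order of organs. Over all members the median log2 ratio of irradiated over untreated was 0.04 for brain, 0.00 for liver and 0.05 for intestine, against 0.02, 0.00 and 0.01 over all probes. Counts of 3 or fewer do not set the members apart from these shares, and their medians lay near those of all probes. The 7 probes past the threshold read Il17c, Il22, Il1r1, Il17d, Il17ra, Il1f8 and Il17rc, and each passed it in 1 organ. Just inside the threshold were Il1r2 in intestine (67.5 and 120, 1.78-fold higher), Il17f in brain (87 and 153.5) and Il2rg in liver (250.25 and 142, 1.76-fold lower), while Il17ra in liver (134 and 248, 1.85-fold higher) lay just outside.

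**Figure D1:**
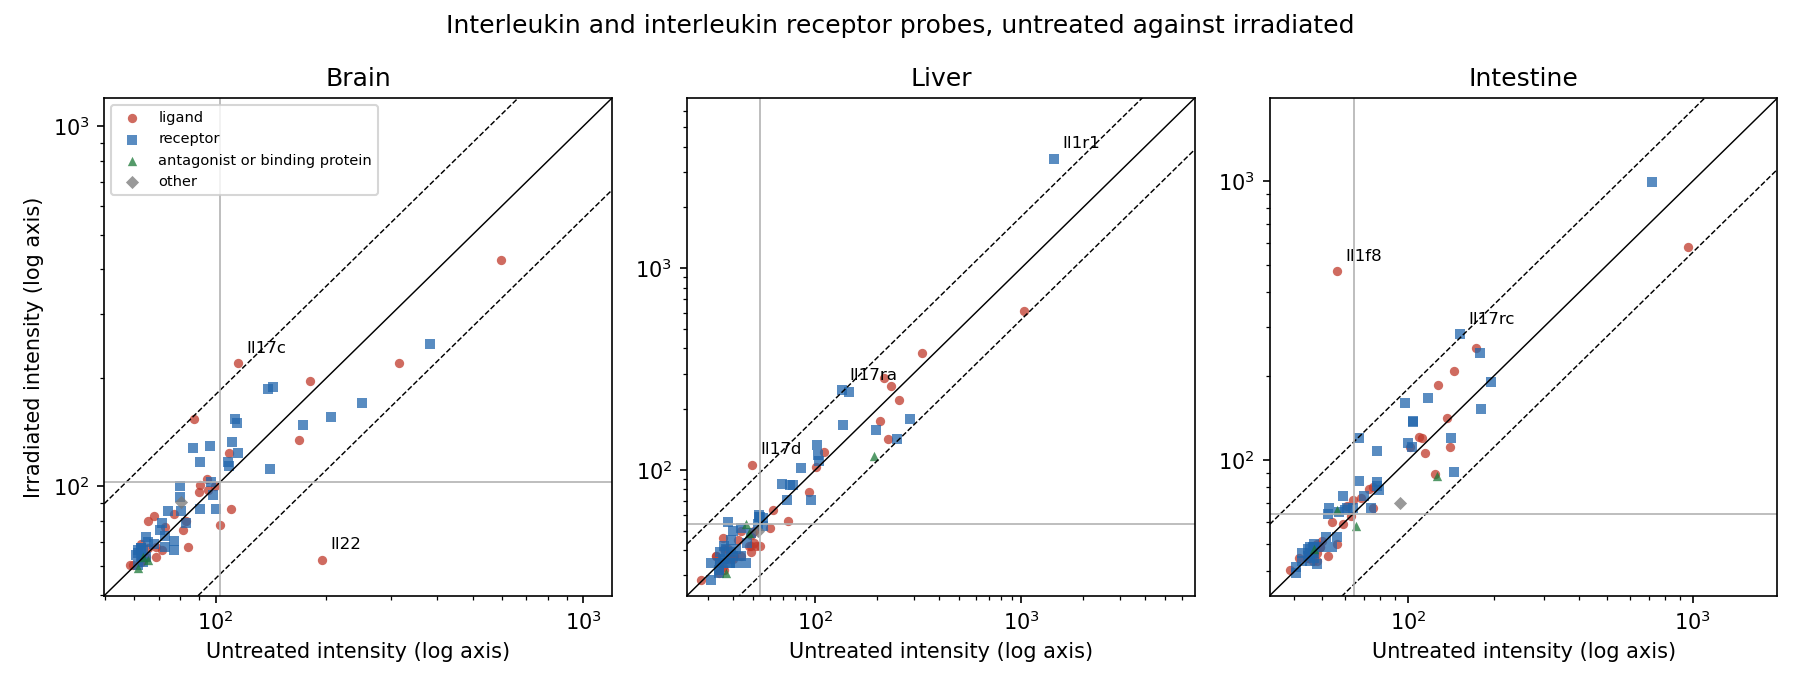
Intensity in untreated (x axis) and irradiated (y axis) tissue of every interleukin and interleukin receptor probe in brain, liver and intestine, on log axes. Colours and shapes mark the role, the solid line marks equal intensity, dashed lines mark 1.8-fold and grey lines mark the median of each column. Many probes crowd near the lowest intensities, and the named probes lie past the dashed lines.

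The organ labels were checked with marker genes. Brain markers summed to 35493.5 over their probes in untreated brain, against 845 in liver and 680 in intestine, and intestine markers summed to 60742.75 in untreated intestine, against 3121.5 in liver and 1048 in brain, on arrays normalized separately for each organ. Liver markers summed to 207412.5 in untreated liver, 38746 in intestine and 1068.5 in brain, and 4 of their 7 probes were lower in irradiated intestine, among them albumin (Alb, 2175 and 268). Of the leukocyte markers in liver, 1 of 11 T cell probes was lower (Cd3e, 186.5 and 92.5), 2 of 11 macrophage probes were lower (among them Adgre1, 361 and 153), and 2 of 7 neutrophil probes were higher (S100a8, 81 and 242.5, and S100a9, 108 and 263.75). The summed intensity of the neutrophil list was 403 in untreated and 742.75 in irradiated liver. The rise lay mostly in S100a8 and S100a9, and its other probes with a value stood between 33 and 67.5. The macrophage list summed to 2035.25 and 1595.5, with 5 probes above 0 on the log2 scale, such as Marco (196 and 284), and 5 below. The T cell list summed to 1046 and 895.5, with 3 probes above 0, such as Cd3d (40.5 and 62.5), and 7 below. In intestine 3 of 8 B cell probes were lower, with summed intensities of 1136 and 571.5. The fall lay mostly in Cd79b (471.5 and 71), and 3 probes, such as Blk (83.5 and 91.5), were above 0 on the log2 scale. There 1 of 11 T cell probes and 1 of 11 macrophage probes were lower, and no neutrophil probe passed the threshold. In brain, Blk (113 and 209.5) was the only leukocyte marker probe past it. Of all probes, 1.57% were higher and 2.55% lower in liver, 1.69% and 2.71% in intestine, and 0.496% and 1.1% in brain. With lists this short, 1 called probe does not set a list apart from these shares. In whole organs, fewer cells of a type and less RNA per cell cannot be told apart, and the part of these cell types in the values below was not tested.

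Among the ligands, Il1f8 in intestine had the largest ratio. Il1f8 is now called Il36b and encodes IL-36 beta, an IL-1 family cytokine of epithelia that activates NF-κB through the receptor chain encoded by Il1rl2. Its intensity was 56.5 in untreated and 474.5 in irradiated intestine, while it was 84 and 68 in brain and 43.5 and 37.5 in liver. The irradiated intestine was the only column in which this probe reached the median, so its ratio rests on a dim untreated value. The log2 ratio in intestine was 3.07 as given, 2.98 under quantile normalization, 3.01 under loess and 2.30 with a pseudocount of 50. The call held under all 8 alternatives. With 1 probe, the mean over probes and the brightest probe could not change it, nor could the 1.5-fold threshold. The gene lies at the end of a cluster of IL-1 family genes, and none of the others in that cluster passed the threshold in intestine, where Il1f9 stood at 46.5 and 46.5, Il1f6 (IL-36 alpha) at 48 and 50, Il1f5 at 47 and 48, Il1f10 at 46.5 and 48, and Il1rn at 56.5 and 66.5. Il1rl2 was read by 2 probes, at 70 and 74.5 and at 47 and 44.5 in intestine. Il1f8 was read by 1 probe, so no other probe bears on its value.

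The 250 bases before the annotated start of Il1f8 are shown because this gene had the largest ratio of all members. They lie at chr2:24152922-24153171 on the plus strand of GRCm38.p6 and come from RefSeq, and capitals mark a match to the AP-1 motif TGANTCA at positions -236 to -230 from the start.
Il1f8: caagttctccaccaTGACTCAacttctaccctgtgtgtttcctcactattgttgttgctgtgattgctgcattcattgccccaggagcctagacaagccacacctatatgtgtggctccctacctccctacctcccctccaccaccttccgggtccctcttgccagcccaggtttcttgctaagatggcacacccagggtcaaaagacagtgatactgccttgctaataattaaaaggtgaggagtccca

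The other agonists of the IL-1 family did not pass the threshold. Il1b, which encodes the inflammatory cytokine IL-1 beta, lay highest within its array in liver, at 1034 in untreated and 610 in irradiated tissue (1.70-fold lower), and it stood at 110 and 86.5 in brain and 73 and 79 in intestine. Il18, whose protein promotes interferon gamma production, had a lower irradiated than untreated value in every organ. Brain gave 598.5 and 424 (1.41-fold lower), liver 226.5 and 142 (1.60-fold lower), and intestine 959.75 and 579 (1.66-fold lower). None of these differences reached 1.8-fold. Il33, which encodes an alarmin of epithelial and endothelial nuclei, stood at 173 and 253 in intestine (1.46-fold higher), at 181 and 196.5 in brain, and at 47.5 and 42 in liver. Both probes of Il1a lay between 37.5 and 67.5 in all columns.

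Of the IL-17 ligands, Il17c was higher in irradiated brain and Il17d in irradiated liver. Il17c, made mainly by epithelia, stood at 115 and 220 in brain (1.91-fold higher), 216 and 284 in liver (1.31-fold higher) and 115 and 106 in intestine. Il17d stood at 49.5 and 106 in liver, where the untreated value was below the median, and at 83 and 80 in brain and 48 and 46.5 in intestine. Both calls were lost with a pseudocount of 50. Il17f in brain (87 and 153.5) was close to the threshold, and in liver (100.5 and 103) and intestine (112.5 and 120) its columns nearly matched. Il17b was at 128 and 185.5 in intestine (1.45-fold higher), and Il17a, the founding member of the family, had no value in brain and lay between 33 and 44.5 elsewhere.

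Il22, which encodes a cytokine of lymphocytes that acts on epithelia, was the only member lower than its untreated value by 1.8-fold, and its probes disagreed. One probe read 195 in untreated and 62.5 in irradiated brain, and the other read 62.5 in both. Elsewhere the pair nearly coincided, at 33 and 37.5 in liver for both probes and between 44.5 and 46.5 in intestine. The untreated brain value of 1 probe was thus the only Il22 value at or above the median of its column, and the mean over the probes, at a log2 ratio of -0.82, was within the threshold. The mouse genome holds a close copy of this gene, Iltifb, which has no named probe here, and whether the probes distinguish the copies is not known.

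Il6, the gp130 cytokine that drives the acute phase response, reached the median in liver only, at 329 and 379.5 (1.15-fold higher). In intestine it was at 50 and 51.5, and it had no value in brain. The 250 bases before its start are shown because the mice report NF-κB activity and Il6 is 1 of only 2 member genes, of the 64 with a promoter, with a match to the κB motif in this window. That motif was written as GGGA and TTTCC with any base between them. They lie at chr5:30012864-30013113 on the plus strand of GRCm38.p6, from RefSeq, and capitals mark the κB match at -44 to -35 and an AP-1 match at -249 to -243.
Il6: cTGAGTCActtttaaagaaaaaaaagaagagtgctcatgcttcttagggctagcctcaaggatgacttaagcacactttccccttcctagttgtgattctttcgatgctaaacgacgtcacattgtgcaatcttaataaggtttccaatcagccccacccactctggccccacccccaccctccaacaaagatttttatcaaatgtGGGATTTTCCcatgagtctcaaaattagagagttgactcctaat

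Promoters were found for 64 of the 80 genes, as 77 windows of 250 bases, and 4 motifs were searched on both strands. The κB motif was in 2 member windows (2.6%, Il6 and Il16) and in 0.356% of all 32851 windows. TGANTCA was in 14 member windows (18.2%) and 6.75% of all, the Stat motif TTCNNNGAA in 8 (10.4%) and 7.02%, and AGAACA, a half-site of the glucocorticoid receptor, in 10 (13.0%) and 16.1%. A match is a description of the letters and not a binding site. Il16, which encodes a chemoattractant of CD4 T cells, gave 109.5 and 121 in intestine, with 65.5 and 80 in brain and 48.5 and 47.5 in liver. Neither of the genes with a κB match passed the threshold. Other spellings of the motif and other regions were not searched, so a member without a match here can still hold a κB site.

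The ligands of lymphocytes stayed within the threshold. Il15, which sustains natural killer cells and memory T cells, stood at 145 and 208 in intestine (1.43-fold higher), 205.5 and 175.5 in liver (1.17-fold lower) and 99.5 and 100 in brain. Il7, the growth factor of lymphoid precursors, lay between 35.5 and 83 over its 2 probes. Of the subunits of IL-12 and IL-23, Il12a was read by 1 bright and 1 dim probe. The bright one gave 315.5 and 220 in brain (1.43-fold lower), while liver gave 233.5 and 259 and intestine 140.5 and 111.5, and the dim one lay between 37.5 and 105. Il12b lay between 42 and 71.5, and Il23a stood at 124.5 and 89 in intestine (1.40-fold lower), 73.5 and 56 in liver (1.31-fold lower) and 109 and 123.5 in brain. Il27, a related cytokine, stood at 168 and 134.5 in brain (1.25-fold lower), with 110 and 123 in liver and 137.5 and 141.5 in intestine. Il10, the inhibitory cytokine, had no value in brain and was at 43.5 and 49.5 in liver and 59 and 59 in intestine, and Il11, a gp130 cytokine of stroma, lay between 75.5 and 98. Il13, of type 2 immunity, reached the median in liver alone, at 255 and 222. Its chromosomal neighbour Il4 stood at 34 and 31 in liver and reached the median in intestine, at 102 and 111.5. Il2, the T cell growth factor, lay between 32 and 60.5, Il5, the growth factor of eosinophils, between 62 and 96.5, and Il21, Il9 and Il31 between 28 and 69. Il25, an epithelial inducer of type 2 immunity, stood at 103 and 78 in brain, and Il3, a growth factor of marrow progenitors, lay between 42 and 77.

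The antagonists and binding proteins showed no call in any organ. Il18bp, whose protein captures IL-18, stood at 193.5 and 116.5 in liver (1.66-fold lower) and 127 and 88 in intestine (1.44-fold lower), the same direction as Il18 in these organs. Il1rn, the antagonist of the IL-1 receptor, which is itself an acute phase gene in liver, stood at 46 and 54 there, at 56.5 and 66.5 in intestine and at 63.5 and 63.5 in brain. Il22ra2, a soluble receptor for IL-22, lay between 47.5 and 65.5. By role, the median log2 ratios in brain, liver and intestine were 0.02, -0.11 and 0.04 for ligand probes, -0.05, -0.11 and -0.07 for antagonists and binding proteins, and 0.09, 0.04 and 0.08 for receptor probes, all small beside the threshold.

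**Figure D2:**
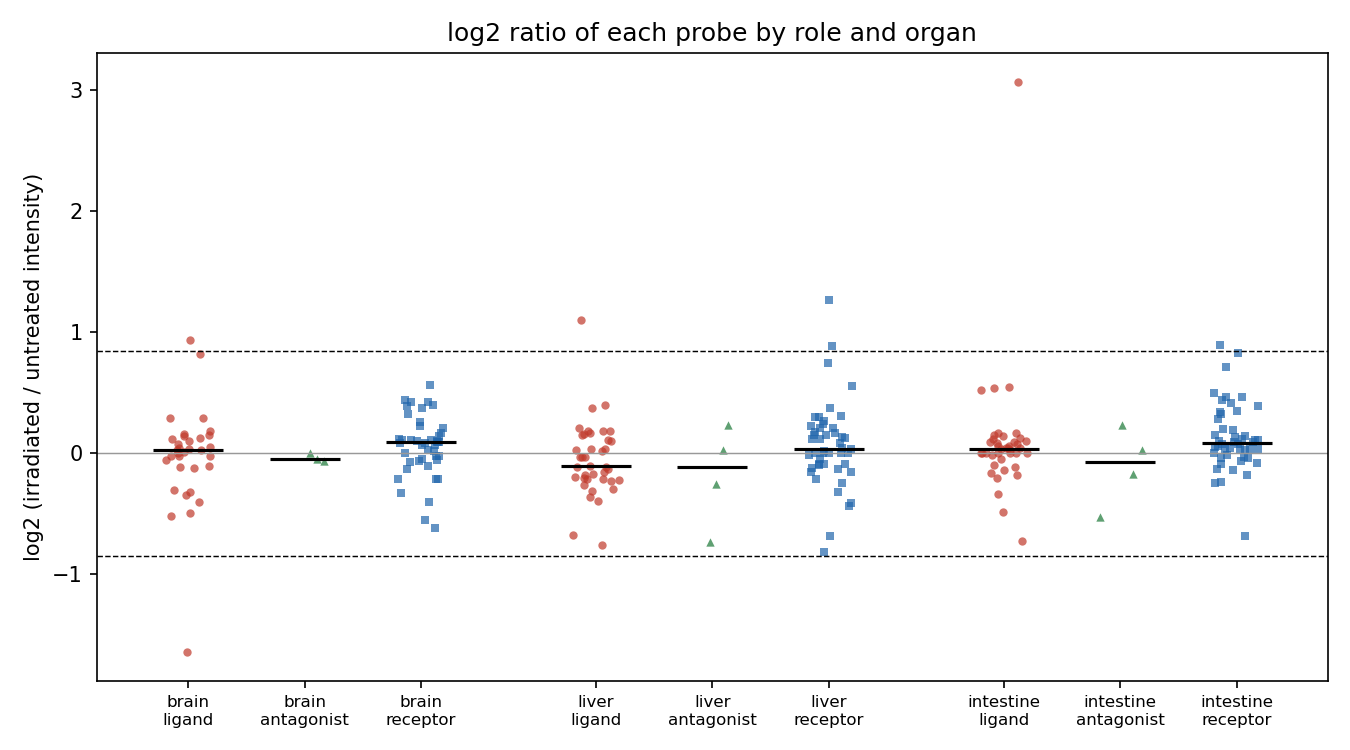
Log2 ratio of irradiated to untreated intensity (y axis) of every member probe with a value, by role and organ (x axis), without Il4i1. Each point is 1 probe, black bars are medians and dashed lines mark 1.8-fold. The highest point is Il1f8 in intestine, at 3.07, and the lowest is Il22 in brain, at -1.64.

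Among the receptors, Il1r1 in liver had the largest ratio, and it lay higher in its column than any other member in any column. Il1r1 encodes the signalling receptor for IL-1 alpha and IL-1 beta. Its intensity was 1445 in untreated and 3478 in irradiated liver (2.41-fold higher), a log2 ratio of 1.27, and it was 86.5 and 127.5 in brain and 179 and 243 in intestine (1.36-fold higher). All 3 irradiated values were above their untreated value. The log2 ratio in liver was 1.15 under quantile normalization, 1.205 under loess and 1.24 with a pseudocount of 50. The call held under all 8 alternatives. As Il1r1 was read by 1 probe, the mean over probes and the brightest probe could not change it, nor could the 1.5-fold threshold. Il1rap, the accessory chain that Il1r1 needs to signal, was at 145 and 242.5 in liver by its brighter probe (1.67-fold higher) and at 34.5 and 39 by the other. Il1r2, a decoy receptor that binds IL-1 without signalling, was at 41 and 40.5 in liver and 67.5 and 120 in intestine (1.78-fold higher). The genes next to Il1r1 on its chromosome were dim in liver, with Il1rl2 at 56 and 52.5, Il18r1 at 48.5 and 48.5 and Il18rap at 34 and 31.

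The 250 bases before both annotated starts of Il1r1 are shown because this receptor had the largest ratio among members bright in both columns. They lie at chr1:40224830-40225079 and chr1:40266336-40266585 on the plus strand of GRCm38.p6, from RefSeq. Capitals mark a match to AGAACA read on the minus strand, at -131 to -126 from the second start, and the window before the first start held none of the 4 motifs.
Il1r1 first start: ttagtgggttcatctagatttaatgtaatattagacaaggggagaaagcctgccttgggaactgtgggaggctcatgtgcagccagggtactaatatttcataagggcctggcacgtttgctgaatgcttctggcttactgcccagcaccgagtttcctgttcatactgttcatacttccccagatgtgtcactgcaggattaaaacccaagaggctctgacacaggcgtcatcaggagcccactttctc
Il1r1 second start: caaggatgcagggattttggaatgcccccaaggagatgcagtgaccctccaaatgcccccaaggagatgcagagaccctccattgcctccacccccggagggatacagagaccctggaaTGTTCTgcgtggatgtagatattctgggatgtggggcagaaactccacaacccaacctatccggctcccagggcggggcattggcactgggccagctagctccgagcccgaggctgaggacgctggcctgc

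Of the IL-17 receptor chains, Il17ra was called in liver and Il17rc in intestine. Il17ra is the chain shared by IL-17 family receptors, and its brighter probe stood at 134 and 248 in liver (1.85-fold higher), 250 and 170.5 in brain (1.47-fold lower) and 141.5 and 120 in intestine (1.18-fold lower). The other probe stood at 77.5 and 84 in liver, 115 and 123.5 in brain and 104 and 136.5 in intestine, so the probes went the same way in liver alone. Il17rc, which pairs with Il17ra to bind IL-17A and IL-17F, stood at 152 and 282.5 in intestine (1.86-fold higher), 98.5 and 94.5 in brain and 52.5 and 54 in liver. Its chromosomal neighbour Il17re was at 59 and 74.5 in intestine and at 143.5 and 188.5 in brain (1.31-fold higher). Both calls lay close to the threshold of 0.85 on the log2 scale. The ratio of Il17ra in liver was 0.89 as given, 0.84 under quantile normalization and 0.82 under loess, and that of Il17rc in intestine was 0.89, 0.83 and 0.82, so both calls were lost with small shifts. A pseudocount gave 0.70 and 0.72, and the mean over the probes of Il17ra gave 0.50. Of Il17rd, 1 probe was at 78 and 107.5 and the other at 48 and 42.5 in intestine.

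**Figure D3:**
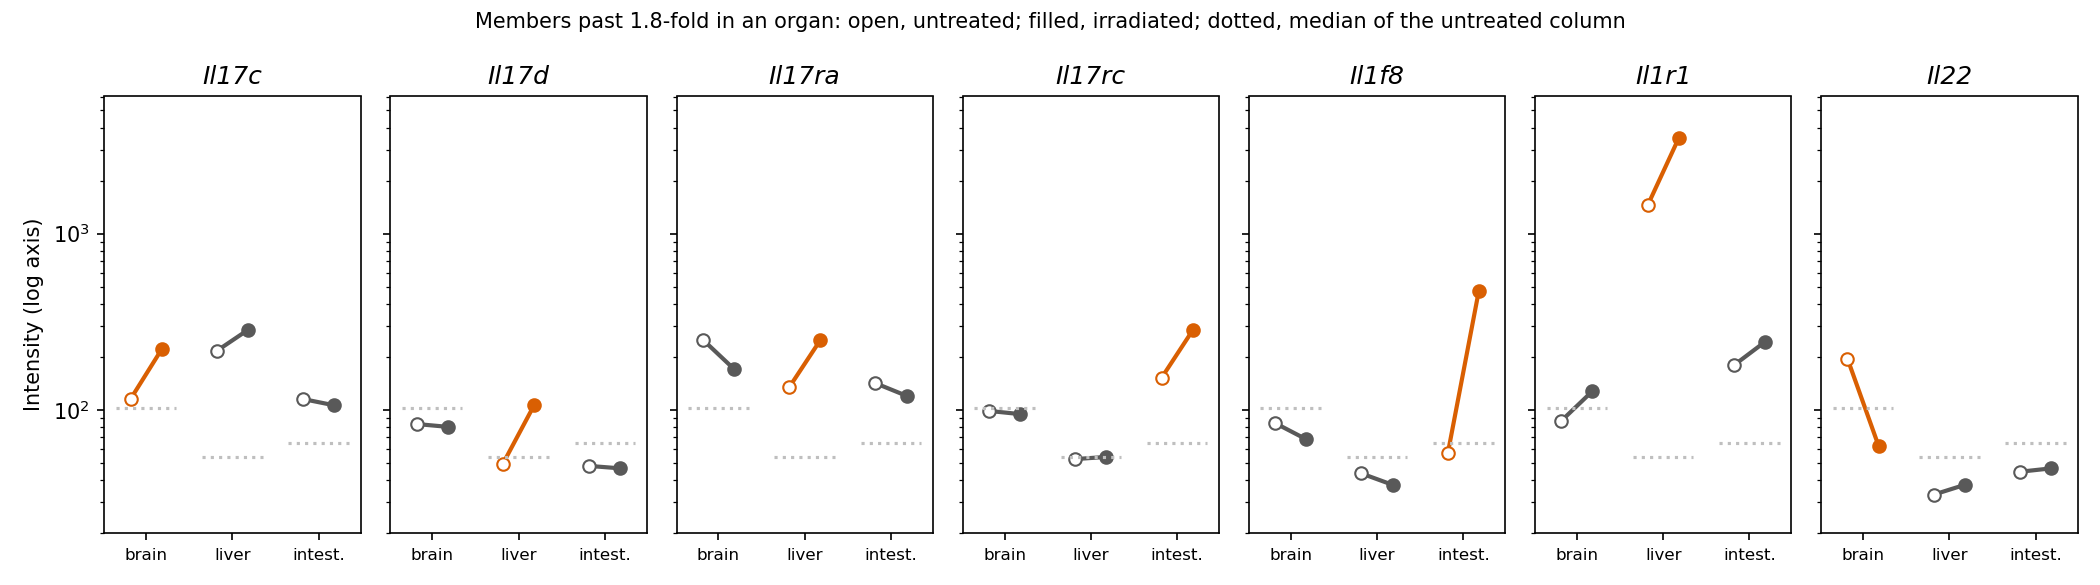
Intensity (log axis) in the 6 columns of the 7 probes past 1.8-fold in an organ. Open points are untreated and filled points irradiated tissue, orange pairs are past 1.8-fold and dotted lines are the median of the untreated column. Each gene has 1 orange pair, from 56.5 to 474.5 for Il1f8 in intestine and from 1445 to 3478 for Il1r1 in liver.

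The other receptor chains that several interleukins share were within the threshold. Il2rg, the common gamma chain of lymphocytes, stood at 383 and 249 in brain (1.54-fold lower), 250.25 and 142 in liver (1.76-fold lower) and 195.5 and 190.5 in intestine. With the intensity trend removed, Il2rg in liver was lower past the threshold, at a log2 ratio of -0.89. Il6st was read by 2 probes, which gave 102 and 132.5 and 197 and 158 in liver, in opposite directions. Il6ra, the private chain of the IL-6 receptor, lay between 53.5 and 75.5 in all columns. Il10rb, shared by the receptors of IL-10, IL-22 and interferon lambda, lay above 95.2% of the probes of its array in untreated intestine, at 719.5 and 991.5 (1.38-fold higher). Brain gave 109 and 114 and liver 75.5 and 84. Il28ra, the private chain of the interferon lambda receptor, was at 98 and 160.5 in intestine by 1 probe (1.64-fold higher) and at 42.5 and 43.5 by the other. Il10ra lay between 34.5 and 85.5 and Il22ra1, the epithelial chain for IL-22, between 34.5 and 77.

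Receptor chains of type 2 immunity and lymphocytes gave small and mixed differences. Il13ra1 stood at 145 and 90.5 in intestine (1.60-fold lower), 140.5 and 112 in brain (1.25-fold lower) and 136.5 and 167.5 in liver (1.23-fold higher). Il4ra stood at 180.5 and 152 in intestine, 111 and 132.5 in brain and 85 and 102 in liver. Il15ra, which presents IL-15 to neighbouring cells, was at 139 and 186 in brain (1.34-fold higher), 67.5 and 84.5 in intestine and 73 and 70.5 in liver. Il7r was at 118 and 167 in intestine by its brighter probe (1.42-fold higher) and at 74 and 67.5 by the other. Il3ra was at 113 and 153.5 in brain (1.36-fold higher). Il20ra, of the receptors for IL-19, IL-20 and IL-24, reached the median in liver alone, at 288 and 179.5 (1.60-fold lower), and its ligands lay between 42 and 84. Il21r was at 96.5 and 129.5 in brain, and Il2ra, the inducible chain of the IL-2 receptor, was at 104.5 and 111 in liver. Il1rapl1, which acts at synapses, was at 114 and 149.5 in brain by 1 probe (1.31-fold higher) and at 61.5 and 66.5 by the other, and lay between 28.5 and 45.5 outside brain. Il2rb, Il5ra, Il9r, Il12rb1, Il12rb2, Il23r, Il27ra, Il31ra and Il1rapl2 lay between 31 and 90.5. The neutrophil chemokine receptors Il8ra and Il8rb did not pass the threshold in any organ, with Il8ra at 95.5 and 70.5 in liver. Il1rl1, the receptor of IL-33, is not analysed here.

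Levels of a probe can be set across organs only by its position within each array, since each organ was normalized on its own. By this measure Il1r1 lay above 97.7% of probes in untreated liver, 82.6% in intestine and 38.8% in brain, and Il1b above 97.0%, 57.0% and 53.4%. Il10rb lay above 95.2% of probes in untreated intestine, 66.1% in liver and 52.9% in brain. Il6 lay above 91.7% in liver and 29.8% in intestine, Il20ra above 90.6% in liver and 15.1% in intestine, and Il18 above 88.3% or more in each organ. Without replicates, which neighbours in this order differ is not known.

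In all 3 organs 15 member probes, of 14 genes, reached the median in both columns. Of these, Il18 and Il2rg were below 0 on the log2 scale in every organ, while Il10rb, 1 probe of Il6st and 1 of Il17ra were above 0 in every organ, and the other 10 were mixed. In the order brain, liver and intestine, the ratios of Il18 were -0.50, -0.67 and -0.73, those of Il2rg -0.62, -0.82 and -0.04, and those of Il10rb 0.07, 0.15 and 0.46. How often other probes this bright share a direction in all 3 organs was not counted, so a shared direction does not set these genes apart.

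**Figure D4:**
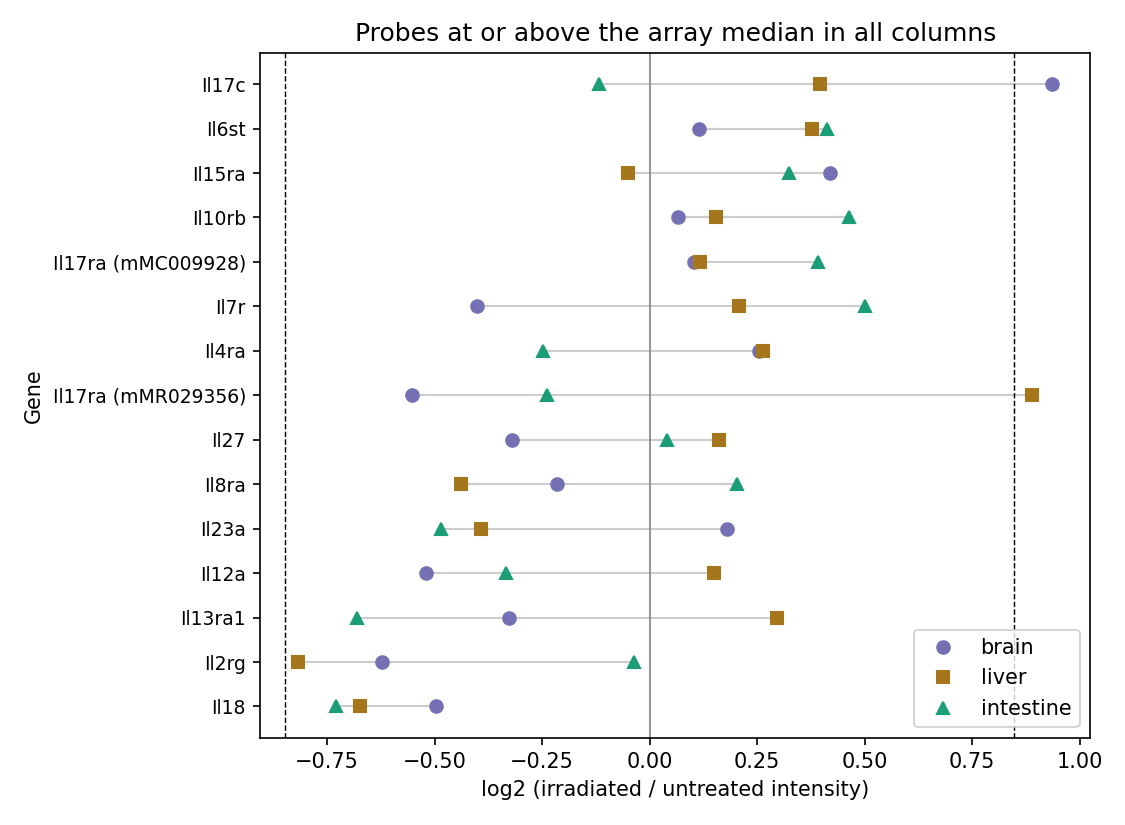
Log2 ratio of irradiated to untreated intensity (x axis) in brain, liver and intestine of the 15 member probes at or above the median in all 6 columns (y axis), ordered by their mean. Dashed lines mark 1.8-fold. Il18 lies between -0.73 and -0.50 in the 3 organs, while 1 probe of Il17ra runs from -0.55 in brain to 0.89 in liver.

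How far probes of the same gene agree can be read from the 13 genes with 2 probes. Both probes read the same columns, so this cannot show how a ratio repeats between mice or arrays. Over 37 pairs of probes with values in an organ, the ratios went the same way in 17, where a ratio of exactly 0 was counted as no direction. In the 5 pairs in which both probes reached the median in both columns, they went the same way in 1, Il17ra in liver (0.12 and 0.89). The other 4 were Il17ra in brain (0.10 and -0.55), Il17ra in intestine (0.39 and -0.24), Il6st in liver (-0.32 and 0.38) and Il7r in intestine (0.50 and -0.13). Probes of a gene can read different transcripts, and no probe positions were used here.

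**Figure D5:**
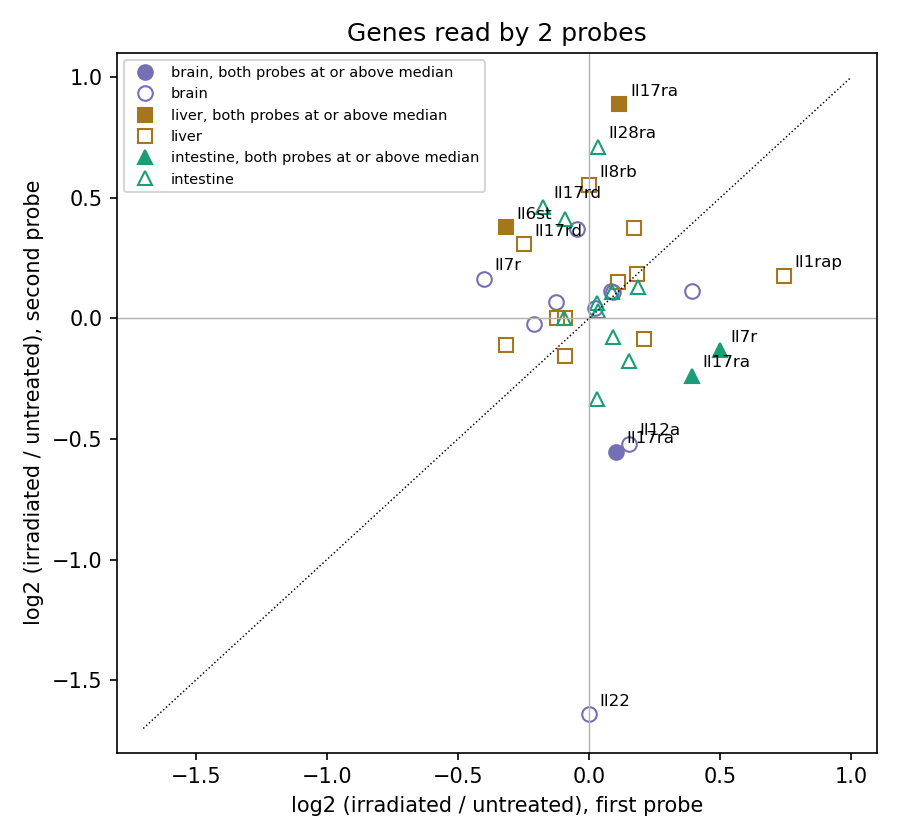
Log2 ratio of irradiated to untreated intensity of the first (x axis) and the second probe (y axis) of each gene read by 2 probes, in the organs where both have a value. Filled symbols are pairs in which both probes reached the median, and the dotted line marks equal ratios. Il22 in brain is the farthest from the line, at 0.00 and -1.64.

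Genes of the pathways around the receptors were described from lists written from general knowledge. Of 48 probes of signalling genes downstream of interleukin receptors, none of the 45 with a value passed the threshold in brain, and 2 were lower in liver: the kinase Jak3, which acts with the common gamma chain (1765 and 742, 2.38-fold lower), and Stat4, which acts downstream of IL-12 (793.25 and 358.5, 2.21-fold lower, with a dim second probe at 29.5 and 39). These were 2 of 47 probes with a value, beside 2.55% of all probes that were lower in liver. In intestine 2 were higher, Stat3 of IL-6 and IL-10 signalling by 1 of its probes (101 and 202.5) and Traf3ip2, the adaptor of the IL-17 receptor (165 and 349.5, 2.12-fold higher). The second Stat3 probe, also above the median, stood at 134.5 and 140.5. The 3 that were lower there were Jak1 (219 and 102, 2.15-fold lower), the NF-κB subunit Nfkb1 (154 and 79, 1.95-fold lower) and the kinase Chuk (180.5 and 83.5, 2.16-fold lower). Against 1.69% of all probes higher and 2.71% lower in intestine, 2 and 3 of 48 do not set the list apart. The medians of this list were 0.10, 0.04 and 0.03 on the log2 scale in brain, liver and intestine. A list of 28 probes held related ligands and receptor chains, such as Lifr, Osmr and Ebi3, and the inflammasome genes Casp1, Nlrp3 and Pycard, which act in the maturation of IL-1 beta and IL-18. The only one past the threshold was 1 probe of Csf2rb, the beta chain of the receptors for IL-3 and IL-5, in intestine (154.5 and 62), and its other probe stood at 89 and 51.5. This call, 1 of 28, does not set the list apart from the 2.71% of all probes lower in intestine.

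Genes known to be induced in liver by IL-1 or IL-6, listed from general knowledge, included several past the threshold. In liver 8 of 22 probes were higher and none was lower by 1.8-fold, beside 1.57% of all probes that were higher. All 8 were among the 20 probes bright in both columns, beside 2.89% of all probes that bright. The list was chosen with earlier results of these data known, so this count is a description and not independent evidence. The 22 probes read 21 of the 26 listed genes. The median log2 ratio was 0.64, and 19 probes were above 0. The 3 below were Hamp (32848 and 21205.5, 1.55-fold lower), Hamp2 (4699 and 3093.5, 1.52-fold lower) and Saa4 (4486.5 and 3464.5, 1.295-fold lower). The largest ratio in the list was that of Lcn2, at 123 and 5372.5 (43.7-fold higher). Saa3, a serum amyloid, stood at 581.5 and 8844 (15.2-fold higher) and the protease inhibitor Serpina3n at 2860.5 and 9708.5 (3.39-fold higher). The pentraxin Apcs stood at 797 and 3966 (4.98-fold higher) and the heme carrier Hpx at 1157.5 and 3633.5 (3.14-fold higher). In brain 1 of 20 was higher, again Lcn2 (70.5 and 211.5), beside 0.496% of all probes. In intestine 3 of 22 were higher and 3 lower, beside 1.69% and 2.71% of all probes, and the list had a median of -0.18. The 3 higher were Lcn2 (75.5 and 209.5), Saa3 (82.5 and 180.75) and Serpina3n (162 and 313.5). The 3 lower were Fgb (622 and 159), Hp (446 and 159) and Fgg (253 and 80). Fgb is also one of the liver markers, of which 4 of 7 probes were lower in irradiated intestine. In the same liver columns Il6, Il1b and Il1a were within the threshold, and Il1r1 was the only chain of the IL-1 and IL-6 receptors past it. Whether any of these ligands or receptors bears on the ratios of the list was not tested.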

How the data were processed

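Cy5-labelled RNA was hybridized to the Mouse Whole Genome OneArray and read on an Axon scanner with GenePix. Intensity values were deposited as made by the authors, who took off local background, dropped control and low-signal spots, and normalized the remainder in R. The submitters' processing notes name limma, with no version, and a genome build is not given in the sources used here. Sorted values nearly coincide within an organ and differ between organs, so organs were normalized apart.

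Each probe's log2 ratio, irradiated over untreated, was taken with nothing added and called at 1.8-fold. Columns were mapped by sample label, 1 per group, so no test or SD was possible. How many arrays there were limits precision. Named genes were those past 1.8-fold, the 6 largest ratios per organ among probes at or above the median, genes whose probes differed in call, and a set of well-known interleukins and receptors. Other members, such as Il13, Il16 and Il20ra, were named after their values were seen. The members and lists were chosen with earlier results of these data known. Calling was tested on simulated data with planted changes. The simulation used the same noise at all intensities of an organ, so it does not bear on dim members or on differences between mice. Symbols and promoters came from RefSeq (GRCm38.p6).

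Alternatives were a common quantile normalization of the 6 columns, loess removal of the intensity trend (span 0.3), a filter at the 25th percentile, a pseudocount of 50, calling at 2-fold or 1.5-fold, the mean over a gene's probes, and its brightest probe alone. Tools were Python 3.11.15, numpy 2.4.6, pandas 2.3.3, matplotlib 3.10.9, R 4.3.3 and limma 3.58.1.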

Additional observations from a re-analysis of the deposited data

How the results depend on the processing

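With a pseudocount of 50, 0 probes were higher in brain, 1 in liver and 1 in intestine, in place of 1, 3 and 2. At a threshold of 2-fold, 0 were higher in brain, 2 in liver and 1 in intestine, without Il17c, Il17ra and Il17rc. At 1.5-fold, 2 were higher and 2 lower in brain, 4 were higher and 5 lower in liver, and 4 were higher and 2 lower in intestine. In intestine 1 was higher under quantile normalization, and 1 under loess, which also gave 1 lower in liver (Il2rg). Liver had 2 higher under quantile normalization and under loess. With genes in place of probes, 0 were lower in brain and 2 higher in liver. The medians moved by less than 0.1 on the log2 scale in every organ and under every alternative run for them. No called ratio changed sign. No paired analysis was possible because each group has 1 column. Intensities near the lowest of a column limit what can be seen, so a change of a dim member can be missed.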

Other observations

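Il34, a ligand of the receptor for colony-stimulating factor 1 that sustains microglia, carries an older symbol in the platform annotation (2010004A03Rik) and was therefore not a member. Brain gave 154.5 in untreated and 116 in irradiated tissue, liver 43.5 and 39, and intestine 64 and 70, so it was within 1.8-fold in each organ.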
